A study of Mus musculus with 85 samples.

Results

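Most of the genes described here encode core proteins of the spliceosome, the machine that cuts introns out of new transcripts. They were measured in mouse embryos before implantation. All were taken by name from the table of all genes, as symbols that begin with Snrp, or with Sf3a, Sf3b, Lsm or Prpf and a number, without symbols marked as pseudogenes. This gave 46 genes, and all 46 were above 1 CPM (counts scaled to a common library total) in at least 3 libraries, out of 37367 genes in the table, 22522 of which passed the same filter. One of them, Snrpert, is annotated as a processed pseudogene on chromosome 2 (131322088 to 131322366, GRCm38) and stood at 0.531 to 0.764 of the CPM of Snrpe in the 85 libraries (median 0.637). Whether its values are reads of Snrpe was not tested. It is counted among the 46 and left out of every summed level. By the same name rule the 46 include Lsm1, Lsm10, Lsm11 and Lsm12, LSm genes with roles outside the spliceosome.

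Introns are recognised and removed by small nuclear ribonucleoproteins (snRNPs), each built from a short RNA and proteins. The Sm proteins form a ring around the RNAs of the U1, U2, U4 and U5 particles, the related LSm proteins form a ring on U6, and a second LSm ring that holds Lsm1 in place of Lsm8 promotes decapping of messenger RNA in the cytoplasm. U1 marks the start of an intron, U2 with its SF3a and SF3b proteins binds the branch point, and the PRPF proteins help to bring in U4, U5 and U6 as a tri-snRNP and to turn the complex into its active form. Early mouse embryos live first on proteins and transcripts stored in the oocyte, which are cleared while the genome of the embryo is switched on at the 2-cell stage.

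The embryos were wild type, of strain B6C3F1/J, and were grown in KSOM medium with 5 mM lactate and with glucose and pyruvate at 0.2 mM each, or in the same medium lacking pyruvate or lactate. RNA was turned into cDNA with Smart-seq2, a full-length protocol that primes on poly(A) tails. The 85 libraries fall into 21 groups, and ages are given in hours from the injection of hCG, which triggers ovulation. In standard medium there were 3 libraries of early 2-cell embryos at 34 h, 4 of mid 2-cell embryos at 42 h, 3 of late 2-cell embryos at 48 h, 3 of very late 2-cell embryos at 52 h, 4 of early 4-cell embryos at 55 h and 4 of late 4-cell embryos at 62 h. Later standard groups were early 8-cell at 66 h (3 libraries), late 8-cell at 74 h (2), morula at 78 h (6), early 16-cell at 80 h (5), early 32-cell at 90 h (4) and blastocyst at 114 h (4). Embryos without pyruvate that were still at the 2-cell stage were taken at 42 h (4), 48 h (5), 52 h (4) and 55 h (4), an age at which standard embryos were at the early 4-cell stage. Morulae at 78 h were also grown without pyruvate (5), without lactate (5), or without pyruvate and with 20 nM KY-PYR-9, which the labels call a myc inhibitor (4). Blastocysts at 114 h were also grown without pyruvate (5) or without lactate (4). How many embryos went into a library is not given in the sources used here, so p-values measure the spread between these libraries, which may be technical, and in such bulk samples fewer cells of a type and less RNA per cell cannot be told apart.

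Depth lay between 10.2 M and 42.6 M reads per library (median 19.6), which limits the precision of the lowest values. The 100 most abundant genes took 20.7% to 52.5% of a library, with 48.5% to 52.5% in the early 2-cell group, and in standard morulae libraries 1 and 2 stood apart at 34.8% and 30.2% against 24.2% to 25.6% in the other 4. Since CPM is a share of the library, such a shift moves all other values, and each count below was repeated under 3 other scalings. Of 12 oocyte transcripts, all 12 were above 1 CPM at 34 h, while markers of cumulus cells summed to at most 23.5 CPM, those of sperm to at most 4.1 CPM and those of blood to at most 88.3 CPM in any library, with at most 2 genes of a list above 1 CPM in any group.

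The summed level of the 45 genes other than Snrpert went from 2152 ± 260.3 CPM (SD, n = 3) in early 2-cell embryos to 6198 CPM in late 8-cell embryos and was 3300 ± 123 CPM (SD, n = 4) in blastocysts. The roles did not share 1 course. Among the 12 standard groups, summed levels of the Sm ring were highest in 32-cell embryos (2199 CPM) and those of the SF3 proteins in 16-cell embryos (1336 CPM). The SF3 sum leans on Sf3b1, which alone was at 604 to 735 CPM in the 16-cell libraries and at 352 to 605 CPM in standard morulae. Its highest point therefore does not show the course of each of the other SF3 genes. Sf3a3 was at 145 to 168.7 CPM in the 16-cell libraries and at 74.7 to 159 CPM in standard morulae. Sf3b2 was at 39.6 to 54.2 CPM and at 58.4 to 122 CPM. Among the 12 standard groups, transcripts of the U1 and U2 proteins summed to most in early 4-cell embryos (1326 CPM). Those of the LSm ring did so in late 8-cell embryos (1042 CPM), whose 2 libraries were at 883 and 1201 CPM. The LSm sum was 932 CPM in early 8-cell embryos and 958 ± 152 CPM (SD, n = 6) in morulae, so these groups are not clearly apart. A group of 8 PRPF genes was set under U4/U6 and tri-snRNP: Prpf3, Prpf4, Prpf6, Prpf8, Prpf18, Prpf31, Prpf38a and Prpf38b. They are called the tri-snRNP genes below, which does not mean that each protein is part of that particle. These 8 summed to most in early 4-cell embryos (760 CPM) and to least in blastocysts (132 CPM). Of the 46 genes, 20 had their lowest standard level at 34 h, 9 at 42 h and 8 at 114 h, while 11 had their highest level in early 4-cell embryos and 7 at 52 h.

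**Figure D1:**
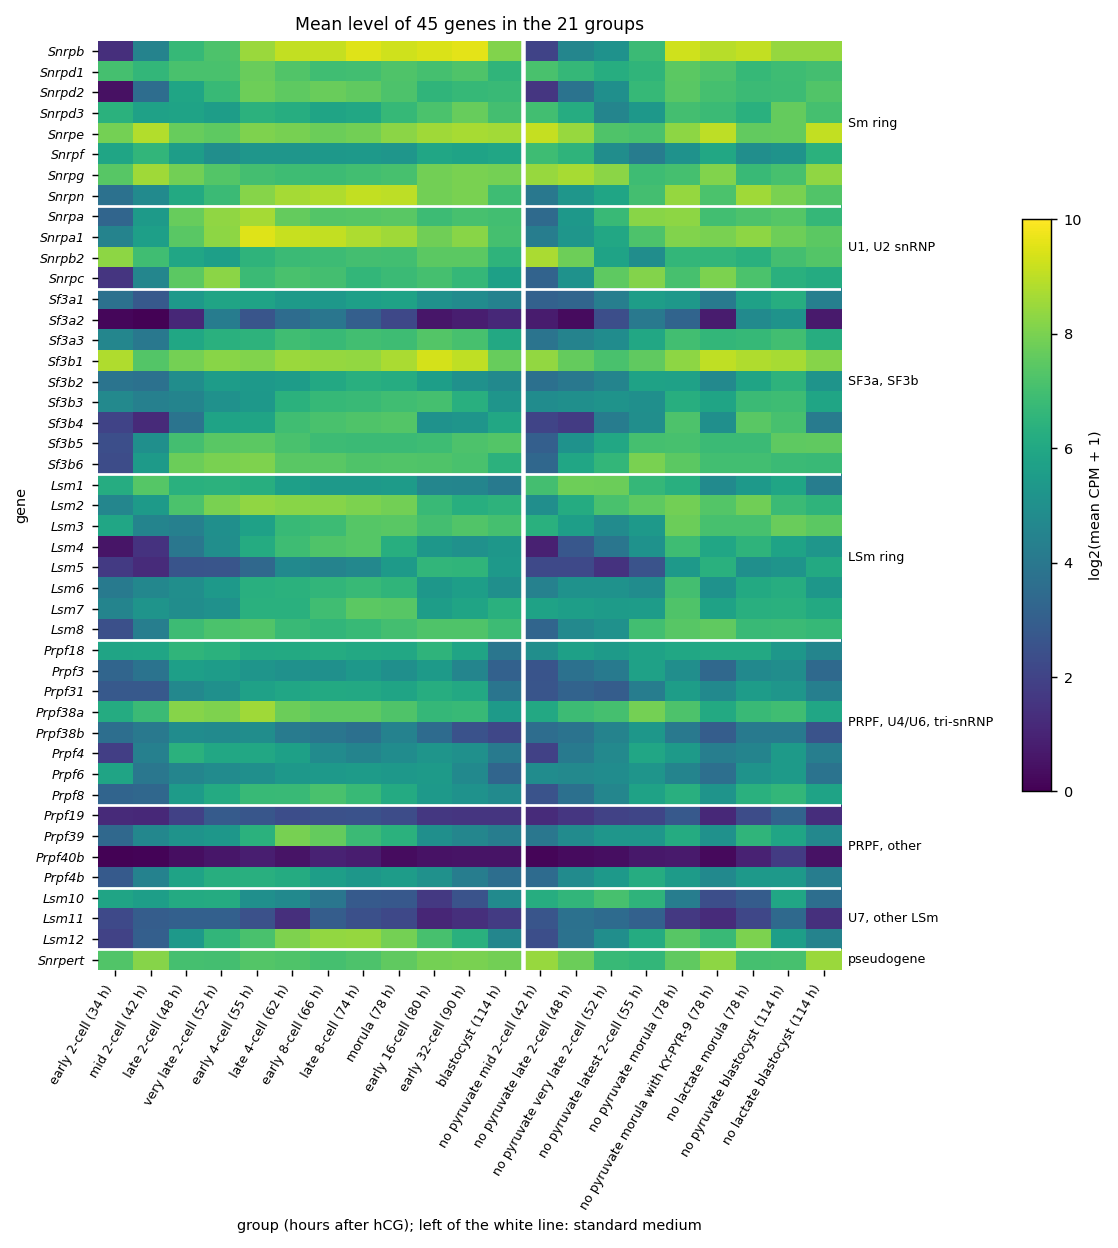
Mean level of 45 genes (rows, grouped by role) in the 21 groups (columns) as log2(mean CPM + 1), with standard medium left of the white line. Snrpb, Snrpd2, Snrpc and Sf3b6 are dark in early 2-cell embryos and bright later, while Snrpe, Sf3b1 and Snrpb2 are bright from the start.

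Within the Sm ring the early 2-cell libraries held very unequal levels of its proteins' transcripts. With priming on poly(A) tails these are levels of transcripts that carry a tail. Per kilobase of transcript the level at 34 h was 471 CPM for Snrpe, 159 for Snrpg, 152 for Snrpd1, 67.7 for Snrpf and 27.4 for Snrpd3, against 6.06 for Snrpn, 1.33 for Snrpb and 0.258 for Snrpd2. In early 8-cell embryos Snrpb led at 481 CPM per kilobase, ahead of Snrpe at 426, and Snrpd2 stood at 147. In blastocysts Snrpe led again at 786 CPM per kilobase, ahead of Snrpb at 236 and Snrpg at 229. Snrpb and Snrpn encode the near-identical proteins B and N that occupy 1 position of the ring, and Snrpn, an imprinted gene read from the paternal copy, ran from 12.1 CPM at 34 h to 534 CPM in late 8-cell embryos. The ratio of Snrpn to Snrpb in CPM ranged from 0.241 to 10.1 over the 85 libraries (median 0.765). Snurf, which shares its transcript with Snrpn, was at or below 1.38 CPM in every library, and how the counting shared reads between such pairs is not given in the sources used here.

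By their start level the 45 genes fell into 3 classes. In 17 genes the 34 h level was under 5% of the highest standard group, and these include Snrpb, Snrpd2 and Snrpn of the Sm ring, Snrpa, Snrpc and Snrpa1 of U1 and U2, Sf3a2, Sf3b4, Sf3b5 and Sf3b6, and Lsm4, Lsm5 and Lsm8. In 8 genes it was over 50%, namely Snrpd1, Snrpe, Snrpf, Snrpb2, Sf3b1, Prpf6, Prpf18 and Lsm10, and the other 20 lay between. The oocyte transcripts summed to 37510 to 46400 CPM at 34 h and to 6622 to 7881 CPM at 48 h, and their part in these start levels was not tested.

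From 34 h to 48 h, 30 of the 46 genes (65.2%) rose and 5 (10.9%) fell past an adjusted p of 0.05, with a median change of 1.26 on the log2(CPM + 1) scale. Among all genes tested 57.7% rose and 13.7% fell, with a median of 0.85, so the share that rose is near that of the transcriptome, and the counts of the 46 are no result particular to them. Every change here is a difference of log2(CPM + 1), so changes of low genes come out too small, and its test is limma's moderated test with Benjamini-Hochberg adjustment over all genes. The direction of the typical gene depends on the scaling: the split was 16 higher and 18 lower under median-ratio scaling, 18 and 19 under quantile scaling, and 19 and 15 with the trend over transcript length removed, while the median of all genes moved from 0.85 to -0.01, -0.07 and -0.25. Relative to that shift, 16 genes rose and 5 fell under all 4 scalings. The 16 are Lsm2, Lsm4, Lsm8, Lsm12, Prpf3, Prpf4, Prpf4b, Prpf8, Sf3b5, Sf3b6, Snrpa, Snrpa1, Snrpb, Snrpc, Snrpd2 and Snrpn, and the 5 are Lsm3, Prpf6, Sf3b1, Snrpb2 and Snrpd3.

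Snrpb, which encodes the Sm proteins B and B′, was at 1.04, 1.60 and 1.98 CPM in the 3 libraries at 34 h and at 93.4, 101 and 118 CPM at 48 h, a rise of 5.38 (SE 0.15, adjusted p = 4.97e-29). Snrpd2, another Sm protein, was at 0.224, 0.576 and 0.300 CPM and then at 62.3, 61.3 and 49.0 CPM, a rise of 5.42 (SE 0.21, adjusted p = 9.57e-25). In both genes the later libraries were far above all the earlier ones. None of the other Sm ring genes but Snrpn rose: the change was 0.09 for Snrpd1 (adjusted p = 0.72), -0.21 for Snrpe (0.414), -0.29 for Snrpf (0.214) and 0.46 for Snrpg (0.0501), and Snrpd3 fell by 0.62. Thus 3 of the 8 Sm genes rose, 1 fell and 4 did not pass, while of all genes 57.7% rose and 13.7% fell.

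Of the 4 proteins specific to U1 or U2, 3 rose and 1 fell, beside 57.7% and 13.7% of all genes. Snrpc encodes a U1 protein, which helps U1 to hold the start of the intron, and it rose from 1.80, 2.26 and 1.77 CPM to 71.6, 285 and 183 CPM, a change of 5.73 (SE 0.33, adjusted p = 2.19e-19). Snrpa1, the U2 protein A′, rose from 19, 23.6 and 20.6 CPM to 169, 179 and 167 CPM (2.98, SE 0.18, adjusted p = 2.96e-18). Its partner in the same U2 protein pair, Snrpb2 (B″), went the other way. Snrpb2 fell from 246, 328 and 361 CPM to 73.5, 54.4 and 52.8 CPM (-2.35, SE 0.19, adjusted p = 2.38e-14). The groups of neither gene overlapped, and the late library 1 was the lowest of its group for Snrpc and the highest for Snrpb2.

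Among the SF3 proteins 6 of 9 rose and 1 fell in CPM, beside 57.7% and 13.7% of all genes. Under all 4 scalings only Sf3b5 and Sf3b6 rose and Sf3b1 fell. Sf3b6, the small subunit that lies at the branch-point adenosine, was at 2.16, 4.95 and 4.75 CPM at 34 h and at 237.5, 220 and 185 CPM at 48 h (5.49, SE 0.20, adjusted p = 1.3e-25). Sf3b1, the large subunit that cradles the branch helix, fell from 411, 457 and 463 CPM to 230.2, 242.5 and 249 CPM (-0.88, SE 0.17, adjusted p = 1.02e-05). All early libraries of Sf3b1 were above all late ones. At 42 h Sf3b1 was lower still, at 139, 146, 185 and 170 CPM, and 9 of the 46 genes, 7 of them SF3 genes, had their lowest standard level at that age.

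In the LSm ring 5 of 8 genes rose and 1 fell in CPM, near the 57.7% and 13.7% of all genes. Under all 4 scalings Lsm2, Lsm4 and Lsm8 rose and Lsm3 fell. Lsm2 rose from 21.4, 26.4 and 22.2 CPM to 137, 148 and 145 CPM (2.58, SE 0.19, adjusted p = 1.29e-15). Lsm3, which sits next to it in both LSm rings, fell from 51.5, 65.4 and 63.6 CPM to 23.6, 19.2 and 16.3 CPM (-1.57, SE 0.23, adjusted p = 5.78e-08). Again no library of one age lay within the range of the other. Lsm8, found in the nuclear ring alone, rose by 4.40, whereas Lsm1, found in the cytoplasmic ring alone, did not pass from 34 h to 48 h and peaked between them, at 164 CPM at 42 h. Lsm12, an LSm protein that joins neither ring, rose from 2.99, 2.51 and 3.26 CPM to 44.3, 39.8 and 36.3 CPM (3.39, SE 0.19, adjusted p = 1.05e-19).

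Of the 8 PRPF genes of the tri-snRNP group, 7 rose and 1 fell in CPM, and of the other 5, 4 rose, beside 57.7% of all genes that rose. Under all 4 scalings only Prpf3, Prpf4 and Prpf8 of the tri-snRNP and Prpf4b of the others rose. Prpf38a, which joins with the tri-snRNP before activation, rose from 56.8, 76.3 and 76.4 CPM to 325, 269.8 and 267 CPM (2.03, SE 0.14, adjusted p = 6.09e-17). Under median-ratio scaling this rise was 0.25 (adjusted p = 0.11). Prpf6, a scaffold between U5 and U4/U6, fell from 53.0, 60.8 and 53.3 CPM to 20.7, 19.5 and 26.9 CPM (-1.29, SE 0.22, adjusted p = 1.96e-06). In both genes the ages did not overlap.

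**Figure D2:**
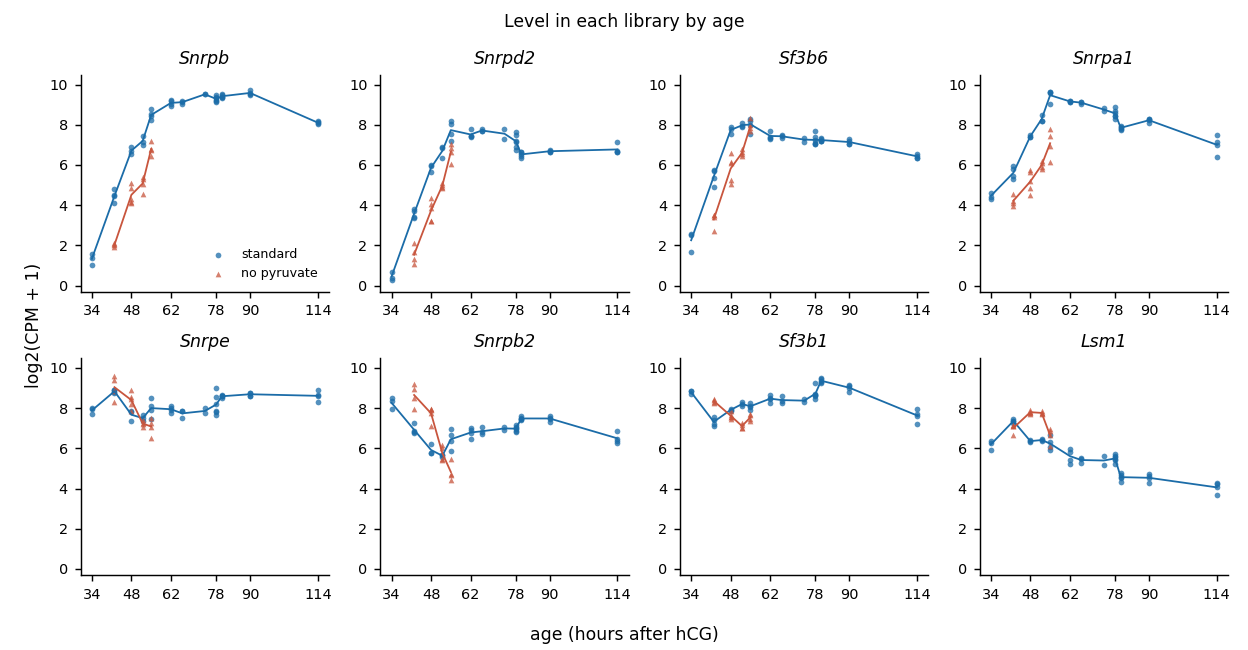
Level of 8 genes in each library as log2(CPM + 1) against age in hours after hCG, in standard medium (blue circles, 12 groups) and without pyruvate at 42 to 55 h (red triangles), with lines through the group means. Snrpb, Snrpd2, Sf3b6 and Snrpa1 climb from 34 h on, with the red points below the blue ones at 42 h, while Snrpb2 starts high and falls, with the red points above the blue ones at 42 and 48 h.

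At 42 h the change was under way. Against 34 h, 24 of 46 genes (52.2%) were higher and 7 (15.2%) lower, beside 42.9% and 7.71% of all genes, with medians of 0.61 and 0.43. Under the other scalings the splits were 11 and 18, 15 and 18, and 15 and 18. Both comparisons use the 34 h libraries, so their calls are not independent. Snrpb reached 21.3 ± 4.57 CPM (SD, n = 4) at 42 h, a rise of 3.13 (SE 0.14, adjusted p = 1.04e-21), and Sf3b1 fell by 1.47 (SE 0.15, adjusted p = 8.67e-11). The list of 9 genes of genome activation at the 2-cell stage summed to 94.7 to 127.6 CPM at 34 h and to 3134 to 4169 CPM at 42 h.

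Other parts of the splicing machinery were measured over the same interval in lists of genes that are not among the 46. From 34 h to 48 h, 33 of 42 further core spliceosome genes rose and 3 fell (median 1.60), as did 9 and 0 of 10 proteins of the minor spliceosome, which removes a rare class of introns (3.51), 15 and 1 of 18 snRNP assembly and import factors (3.62), 11 and 1 of 12 SR proteins, which guide splice site choice (3.19), and 5 and 2 of 9 decapping partners of the cytoplasmic LSm ring (0.54). These counts stand beside the 57.7% and 13.7% of all genes and their median of 0.85, and those of the further core genes and the decapping partners depend on the scaling. Under median-ratio scaling, quantile scaling and with the length trend removed, the further core genes split into 19 and 16, 18 and 9, and 20 and 9, with medians of 0.04, 0.42 and 0.48. The decapping partners split into 2 and 6, 2 and 4, and 2 and 5, with medians from -0.74 to -0.54, so that more of them fell than rose. The other 3 lists kept 8 of 10, 13 to 14 of 18 and 9 to 10 of 12 genes that rose, and their medians stayed between 1.72 and 2.58. Wdr77, a subunit of the methyltransferase complex that prepares Sm proteins for assembly, was at 4.05 ± 1.22 CPM at 34 h and 382 ± 42.4 CPM at 48 h (SD, n = 3 each). Ncbp1, the large cap-binding protein, went from 1.21 to 188.9 CPM. For Snrnp25 of the minor spliceosome the values were 1.20 and 106 CPM, and for the SR protein Srsf1 8.62 and 241.5 CPM.

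Promoters of the genes were read from RefSeq for GRCm38.p6, as 250 bases before to 50 after each annotated start, and 36 of the 46 genes were found in that table. The letters CCGGAA, searched on both strands (TTCCGG on the other), stood in the promoter of 20 of the 36 (55.6%), against 26.7% of genes above 1 CPM and 16.7% of all genes in the table. TATAAA was in 3 of 36 (8.33%), against 10.6% and 15.7%. The median GC content of the promoters was 57.5%, and 52.7% over all genes. Both motifs were chosen after the data had been seen, and a match is a description of the letters and not a binding site. The promoters of Sf3b6 (chr12:4817358-4817657, plus strand), which rose most steeply among SF3 genes, Snrpe (chr1:133610231-133610530, minus strand), which was high throughout, and Snrpb2 (chr2:143062819-143063118, plus strand), which fell, are shown because genes of opposite course carry the same letters. They are printed from 5′ to 3′, with CCGGAA or TTCCGG in capitals.
Sf3b6: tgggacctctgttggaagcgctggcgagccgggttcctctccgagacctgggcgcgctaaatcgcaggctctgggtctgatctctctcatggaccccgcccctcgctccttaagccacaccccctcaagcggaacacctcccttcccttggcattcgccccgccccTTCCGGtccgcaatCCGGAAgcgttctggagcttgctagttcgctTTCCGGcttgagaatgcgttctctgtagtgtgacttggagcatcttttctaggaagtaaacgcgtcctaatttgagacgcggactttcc
Snrpe: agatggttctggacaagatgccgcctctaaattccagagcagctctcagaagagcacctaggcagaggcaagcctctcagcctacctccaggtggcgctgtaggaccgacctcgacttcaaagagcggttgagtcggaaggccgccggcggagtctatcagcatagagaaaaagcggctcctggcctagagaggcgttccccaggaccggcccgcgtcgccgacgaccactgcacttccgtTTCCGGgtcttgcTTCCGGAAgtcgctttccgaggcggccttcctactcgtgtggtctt
Snrpb2: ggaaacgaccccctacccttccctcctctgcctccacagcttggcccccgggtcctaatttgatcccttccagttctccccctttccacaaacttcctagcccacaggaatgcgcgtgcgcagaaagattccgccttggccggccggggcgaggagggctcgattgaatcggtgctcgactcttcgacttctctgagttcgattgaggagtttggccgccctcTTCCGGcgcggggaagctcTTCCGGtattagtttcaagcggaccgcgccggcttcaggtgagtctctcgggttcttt
Sf3b6 and Snrpe have 3 matches each and Snrpb2 has 2. In Snrpe a match on either strand shares bases, which gives the longer run in capitals.

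From the late 2-cell to the early 8-cell stage more of the genes rose than fell, while among all genes more fell in CPM. Of the 46, 22 rose (47.8%) and 8 fell (17.4%), with a median of 0.48, whereas 24.5% of all genes rose and 47.9% fell, with a median of -0.46. The splits under the other scalings were 23 and 6, 23 and 8, and 29 and 3, and 21 genes rose and 3 fell under all 4. The all-gene median moved to -0.30 under median-ratio scaling, 0.06 under quantile scaling and 0.07 with the length trend removed. With quantile scaling or the length trend removed, more of all genes rose than fell, so that side of the contrast depends on the scaling. Leaving out early 8-cell library 1 gave 5 lower genes in place of 8. By role, 6 of 8 LSm ring genes, 6 of 9 SF3 genes, 3 of 8 Sm genes, 2 of 4 U1 and U2 genes and 3 of 8 tri-snRNP genes rose, and 4 of the 8 tri-snRNP genes fell.

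The steepest rises were in genes that had been low at 48 h. Sf3b4, which contacts the transcript upstream of the branch point, rose from 5.48, 19.8 and 14.4 CPM to 119, 142 and 158 CPM (3.45, SE 0.55, adjusted p = 4.92e-07). Lsm4 rose from 11.8, 16.3 and 16.2 CPM to 139.7, 138 and 176 CPM (3.27, SE 0.19, adjusted p = 1.01e-18). Lsm12 rose by 3.00 (SE 0.19, adjusted p = 1.34e-17) to 328 ± 22.4 CPM, and Snrpb by 2.42 (SE 0.15, adjusted p = 2.63e-17) to 558 ± 30.7 CPM (SD, n = 3 each). Smaller rises were those of Snrpa1 (1.67, adjusted p = 1.27e-10), Lsm2 (1.03, adjusted p = 8.45e-06) and Sf3b1 (0.49, adjusted p = 0.00856, and 0.0558 without early 8-cell library 2). In all of these the 2 ages did not overlap.

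The genes that fell include the U7 protein Lsm10, which works on the ends of histone transcripts. It was at 78.5, 62.0 and 66.9 CPM at 48 h and at 9.80, 16.2 and 16.1 CPM at 66 h (-2.25, SE 0.21, adjusted p = 2.45e-12), and went on to 2.16 CPM in 16-cell embryos. Prpf4, a U4/U6 protein, fell from 82.1 ± 9.37 to 27.6 ± 7.35 CPM (-1.56, SE 0.22, adjusted p = 4.38e-08), and Snrpg from 232 ± 38.8 to 115 ± 12.9 CPM (-1.0, SE 0.21, adjusted p = 5.92e-05; SD, n = 3 each). Prpf38a fell by 0.65 (adjusted p = 5.75e-05). In all 4 genes the late 2-cell libraries lay above the 8-cell ones. Of the 9 decapping partners 2 rose and 7 fell (median -1.36), against 23 and 10 of the 42 further core genes (0.68). Under the other scalings 4 to 7 of the decapping partners fell and 25 to 29 of the further core genes rose.

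From the early 8-cell stage to the blastocyst, 32 of the 46 genes (69.6%) fell and 8 (17.4%) rose, with a median of -1.07. Of all genes 44% fell and 17.1% rose, with a median of -0.36. The split of higher and lower was 17 and 15, 10 and 20, and 9 and 25 under the other scalings, which moved the all-gene median to 0.0038, -0.01 and 0.10. All 8 tri-snRNP genes, 8 of 9 SF3 genes, 5 of 8 LSm ring genes, 4 of 5 other PRPF genes and 2 of 4 U1 and U2 genes fell, but in the Sm ring 4 of 8 rose and 3 fell. Under all 4 scalings 8 genes rose (Lsm5, Lsm10, Sf3b5, Snrpd3, Snrpe, Snrpf, Snrpg and the pseudogene Snrpert) and 15 fell. The 15 are Lsm2, Lsm4, Lsm12, Prpf3, Prpf6, Prpf8, Prpf18, Prpf31, Prpf38a, Prpf38b, Prpf4b, Prpf39, Sf3a2, Snrpa1 and Snrpn. They include every tri-snRNP gene but Prpf4, and Sf3a2 as the only SF3 gene, so the fall of the other SF3 genes rests on the scaling. In the blastocyst cells have also begun to differ, and 10 trophectoderm markers summed to 16870 to 20010 CPM there. Their part in these changes was not tested.

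Lsm12 fell from 349.7, 328 and 305 CPM to 22.2, 31.0, 24.6 and 14.4 CPM (-3.82, SE 0.18, adjusted p = 4.45e-22). Prpf39, a U1-associated protein, fell from 181, 165.5 and 245 CPM to 19.3, 17.6, 12.7 and 22.6 CPM (-3.39, SE 0.20, adjusted p = 7.07e-19). Its exons share bases with Fkbp3 on the other strand, which stood at 3.82 times its mean level, and without strand the reads of the pair cannot be told apart. Sf3a2 of the SF3a trimer fell from 12.3, 12.7 and 18.1 CPM to 0.292, 3.65, 0.611 and 0.300 CPM (-3.01, SE 0.42, adjusted p = 3.45e-08), with the same limit, since Plekhj1 on the other strand stood at 6.53 times its level. Blastocyst library 2 held the 1 value of Sf3a2 above 1 CPM.

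The genes with the highest level of their role also fell, each without overlap. Snrpa1 went from 528.5, 559 and 557 CPM to 139.9, 179, 83.4 and 126 CPM (-2.10, SE 0.17, adjusted p = 3.28e-14). Prpf38a went from 193, 182 and 172 CPM to 41.5, 48.5, 32.7 and 46.6 CPM (-2.09, SE 0.13, adjusted p = 4.78e-18). In CPM these 2 fell by more than the median of all genes (-0.36), as did Lsm2, Snrpb and Sf3b1, given next. Lsm2 dropped from 291, 289 and 300.4 CPM to 89.1, 86.8, 91.4 and 80.6 CPM (-1.75, SE 0.18, adjusted p = 2.15e-11). Snrpb was at 527.5, 558 and 589 CPM and then at 286, 280.5, 272 and 260 CPM (-1.02, SE 0.14, adjusted p = 5.62e-08), and Sf3b1 at 329, 383 and 305 CPM and then at 197, 148, 211 and 250.2 CPM (-0.77, SE 0.15, adjusted p = 3.55e-05). Under median-ratio scaling these last 2 changes were 0.26 and 0.51, so their direction rests on the scaling.

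The 3 largest rises were in small proteins of the Sm and LSm rings. Snrpd3 rose from 44.6, 56.5 and 66.4 CPM to 135, 166, 126 and 90.5 CPM (1.18, SE 0.27, adjusted p = 0.000155). Snrpg rose from 102, 115 and 128 CPM to 264.5, 158, 272 and 271 CPM (1.04, SE 0.20, adjusted p = 1.34e-05). Lsm5 rose from 17.7, 20.7 and 25.2 CPM to 36.7, 32.4, 44.4 and 51.9 CPM (0.92, SE 0.25, adjusted p = 0.00112). All blastocyst libraries of the 3 genes lay above all 8-cell ones, with library 4 lowest for Snrpd3 and library 2 lowest for Snrpg and Lsm5. Across the 45 genes the change ran against transcript length, with a Pearson r of -0.41 between the log2 change and log2 length. The points share their libraries. Median changes for short, middle and long transcripts (classes given below) were 0.17, -1.02 and -1.39 in the 45 genes. Over all genes they were -0.06, -0.33 and -0.59, so a gradient in the same direction was present in the whole transcriptome. Whether the 45 genes differ from it was not tested.

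Embryos that stayed at the 2-cell stage without pyruvate can be set beside standard ones of the same age or of a similar stage. At 42 h, 8 of the 46 genes (17.4%) were higher without pyruvate and 20 (43.5%) lower, with a median of -0.28, beside 5.58% and 31.2% of all genes and a median of -0.26. The other scalings gave 18 and 9, 14 and 9, and 15 and 13, and moved the all-gene median to 0.05, 0.09 and 0.17. Under all 4, Lsm3, Lsm5, Lsm10, Prpf6, Sf3b1, Sf3b3, Snrpb2 and Snrpd3 were higher and Prpf4, Sf3b5, Sf3b6, Snrpa, Snrpa1, Snrpb, Snrpc and Snrpd2 lower. The oocyte transcripts summed to 42320 to 45130 CPM without pyruvate and to 35360 to 40630 CPM in standard medium, and the genome activation list to 1953 to 2995 CPM and 3134 to 4169 CPM. Their part in the differences was not tested.

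Snrpb, Prpf4, Sf3b6 and Snrpa1 were among the 20 genes that were lower at 42 h without pyruvate. Snrpb was at 3.10, 3.23, 2.73 and 3.29 CPM without pyruvate and at 21.4, 20.6, 16.0 and 27.1 CPM with it (-2.43, SE 0.21, adjusted p = 5.09e-12). Prpf4 was at 2.41, 2.76, 2.89 and 3.26 CPM against 21.1, 19.2, 15.0 and 22.2 CPM (-2.40, SE 0.18, adjusted p = 2.17e-13). For Sf3b6 the values were 10.5, 9.69, 5.58 and 10.3 CPM against 40.0, 51.4, 28.6 and 52.8 CPM (-2.14, SE 0.25, adjusted p = 1.06e-08). In these 3 genes the 4 libraries without pyruvate were all under the 4 standard ones. Snrpa1 stood at 22.6, 17.7, 14.8 and 16.3 CPM against 42.4, 53.8, 38.4 and 60 CPM (-1.39, SE 0.24, adjusted p = 1.57e-05), again without overlap.

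Smaller falls were seen in Prpf38a, at 74.1, 76.4, 46 and 65.2 CPM against 113, 116, 102 and 117 CPM (-0.79, SE 0.16, adjusted p = 0.000138). Lsm2 was at 25, 27.4, 32.8 and 35.1 CPM against 42.5, 43.0, 41.0 and 43.7 CPM (-0.50, SE 0.17, adjusted p = 0.02), but higher by 0.14 under median-ratio scaling and by 0.02 under quantile scaling. Its adjusted p was 0.0825 without library 1 and 0.0573 without library 2 of the embryos lacking pyruvate. Lsm12 was at 3.34, 2.98, 6.90 and 3.72 CPM against 6.40, 6.36, 7.17 and 8.52 CPM (-0.68, SE 0.20, adjusted p = 0.00647), and its groups overlapped through library 3; under the other scalings its adjusted p was 0.354 to 0.882.

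Snrpb2, Lsm3, Sf3b1 and Snrpd3 were among the 8 genes that were higher at 42 h without pyruvate. Snrpb2 was at 489.9, 588, 251 and 362 CPM without pyruvate and at 109, 114, 155 and 110.0 CPM with it (1.73, SE 0.24, adjusted p = 3.49e-07). Lsm3 was at 90.2, 119, 49.5 and 63.7 CPM against 18, 18.8, 29.2 and 21 CPM (1.79, SE 0.24, adjusted p = 1.54e-07). Sf3b1 was at 310.3, 319.6, 348 and 335 CPM against 139, 146, 185 and 170.1 CPM (1.04, SE 0.12, adjusted p = 3.71e-09). The groups were apart for all 3, and library 3 was the lowest of its group for Snrpb2 and Lsm3. Snrpd3 was at 157, 120, 95.4 and 129 CPM against 51.6, 45.4, 58.0 and 52.0 CPM (1.24, SE 0.23, adjusted p = 4.28e-05).

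Set beside early 2-cell embryos 8 h younger, the embryos without pyruvate at 42 h differed in fewer genes. There 14 of 46 (30.4%) were higher and 5 (10.9%) lower, beside 11.5% and 3.8% of all genes, with medians of 0.35 and 0.14, and with splits of 9 and 8, 8 and 6, and 8 and 8 under the other scalings. Without early 2-cell library 1 the higher genes were 7, and without library 2 or 3 the lower ones were 3 and 2. Snrpe was at 558 ± 205 CPM (n = 4) against 237 ± 27.1 CPM (n = 3), a difference of 1.16 (SE 0.25, adjusted p = 0.000932). For Lsm7 the values were 52.8 ± 19.1 and 21.9 ± 3.73 CPM (1.17, SE 0.26, adjusted p = 0.00131), and for Prpf6 28 ± 3.36 and 55.7 ± 4.42 CPM (-0.97, SE 0.21, adjusted p = 0.00081; SD throughout). Snrpa1 (-0.24, adjusted p = 0.713), Lsm2 (0.34, 0.254), Prpf38a (-0.11, 0.85) and Lsm12 (0.37, 0.318) did not pass, which does not show that they were equal.

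At 48 h and 52 h more of the genes were lower than higher without pyruvate. At 48 h, 27 of 46 genes (58.7%) were lower and 11 (23.9%) higher (median -0.90), beside 34.3% and 22.6% of all genes (median -0.14). At 52 h, 30 (65.2%) were lower and 3 (6.52%) higher (median -1.0), beside 31.3% and 31.9% (median 0.08). Under all 4 scalings 24 genes were lower and 11 higher at 48 h, and 29 lower and 3 higher at 52 h. Leaving out late 2-cell library 2 or 3 gave 7 and 6 higher genes at 48 h. The oocyte transcripts summed to 23880 to 29610 CPM at 48 h and 13170 to 16830 CPM at 52 h without pyruvate, against 6622 to 7881 and 1825 to 2292 CPM in standard embryos.

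By role, the SF3 genes were lower in 8 of 9 cases at 48 h and 8 of 9 at 52 h. The tri-snRNP genes were lower in 7 and 6 of 8, and the U1 and U2 genes in 3 and 3 of 4, beside 34.3% and 31.3% of all genes. Under all 4 scalings the lower SF3 genes at 48 h were Sf3a1, Sf3a3, Sf3b2, Sf3b4, Sf3b5 and Sf3b6. Sf3b3 was higher under all 4 at 48 h, and Sf3b1 changed sign under median-ratio scaling. At 52 h the 8 SF3 calls held under all 4. Snrpa, the U1 protein A, was at 59.2, 25.8, 34.3, 34.8 and 40.9 CPM without pyruvate at 48 h and at 167, 229 and 208 CPM with it (-2.38, SE 0.21, adjusted p = 1.16e-11). Snrpa1 stood at 37.1 ± 13.2 CPM against 172 ± 6.52 CPM at 48 h (-2.25, SE 0.25, adjusted p = 2.09e-09; n = 5 and 3) and at 63.3 ± 8.44 CPM against 312 ± 41.5 CPM at 52 h (-2.29, SE 0.26, adjusted p = 4.3e-09; n = 4 and 3). Prpf4, at 16.3 ± 4.17 against 82.1 ± 9.37 CPM, was also lower at 48 h (-2.29, SE 0.19, adjusted p = 2.15e-12). At 52 h Snrpb was at 33.6 ± 8.09 against 147 ± 25.6 CPM (-2.12, SE 0.22, adjusted p = 6.19e-10) and Lsm8 at 32.5 ± 7.04 against 141 ± 12 CPM (-2.10, SE 0.26, adjusted p = 1.41e-08). Libraries of the 2 media did not overlap in any of these.

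Lsm1 was among the higher genes. In standard medium it went from 173, 166, 151 and 165 CPM at 42 h to 84.9, 77.6 and 81.2 CPM at 48 h, while without pyruvate it was at 137, 137, 102 and 141 CPM and then at 210.1, 222, 217, 239.5 and 223 CPM. The difference at 48 h was 1.44 (SE 0.16, adjusted p = 1.28e-09) and at 52 h 1.35 (SE 0.17, adjusted p = 1.36e-08). Of the 9 decapping partners of its ring, 4 were higher and 2 lower at 48 h (5 to 6 and 2 under the other scalings), beside 22.6% and 34.3% of all genes. At 52 h the counts were 6 and 1 (median 0.85), among them Dcp1a at 176 ± 10.9 against 43.8 ± 3.42 CPM. Of all genes 31.9% were higher and 31.3% lower at 52 h, and the counts of partners under the other scalings are not given for that age. Snrpb2 (1.82, SE 0.25, adjusted p = 1.39e-07) and Lsm3 (1.21, SE 0.25, adjusted p = 9.23e-05) were still higher at 48 h. At 52 h the other 2 higher genes were Lsm10, at 135 ± 22.4 against 69.4 ± 7.21 CPM (0.94, SE 0.16, adjusted p = 7.92e-06), and Snrpg, at 305 ± 30.4 against 159 ± 15.2 CPM (0.93, SE 0.24, adjusted p = 0.00118).

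**Figure D3:**
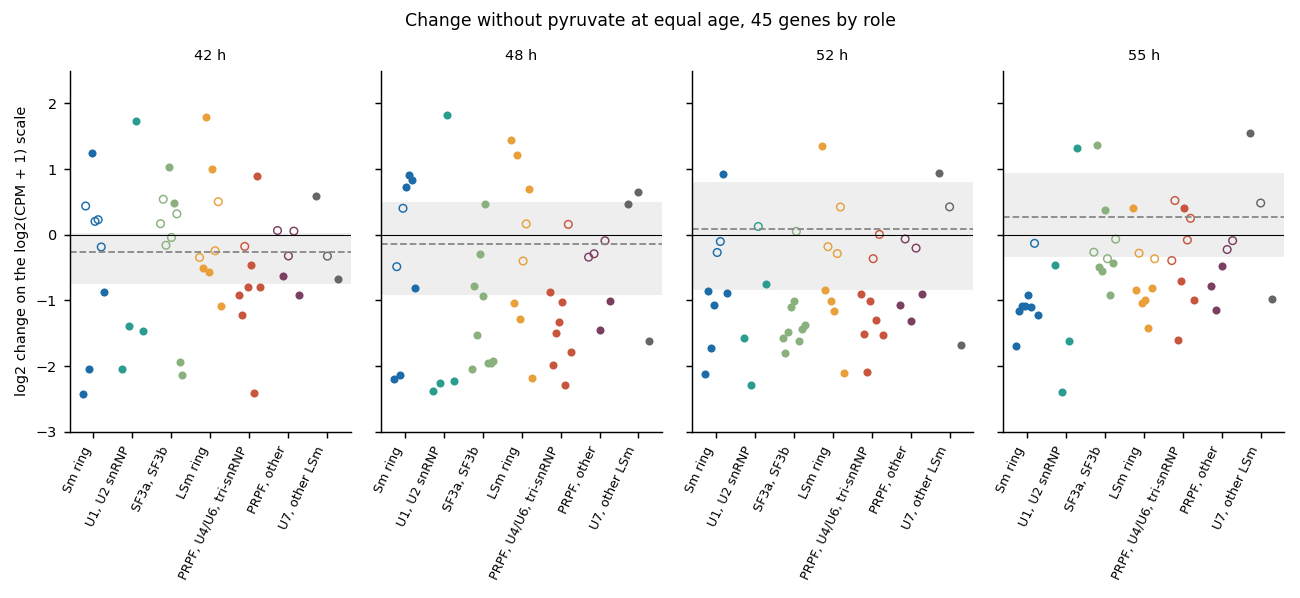
Change of each of the 45 genes without pyruvate at 42, 48, 52 and 55 h on the log2(CPM + 1) scale, by role; filled points passed an adjusted p of 0.05, open ones did not. The grey band spans the central 50% of all genes tested with a dashed line at their median, and at 52 h most filled points lie below the band's centre, with Lsm1, Lsm10 and Snrpg above 0.

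At 55 h, embryos without pyruvate were still at the 2-cell stage and standard ones at the early 4-cell stage, so age and stage cannot both be matched. Of the 46 genes 27 (58.7%) were lower and 6 (13%) higher (median -0.52), beside 19.5% and 37.7% of all genes (median 0.27). The splits under the other scalings were 3 higher and 32 lower, 4 and 28, and 3 and 34, and 3 genes were higher when only the 2 groups compared were fitted. Under all 4 scalings 25 genes were lower and 3 higher, namely Lsm10, Sf3a2 and Snrpc. In the Sm ring 7 of 8 genes were lower. Snrpa1 stood at 217, 174.5, 69.2 and 124 CPM against 526, 805, 795 and 753 CPM (-2.39, SE 0.24, adjusted p = 4.02e-10), Snrpb at 112 ± 23.1 against 361 ± 55.3 CPM (-1.69, SE 0.21, adjusted p = 1.68e-08) and Snrpb2 at 28.6 ± 10.4 against 89.9 ± 27.8 CPM (-1.62, SE 0.24, adjusted p = 8.42e-07; SD, n = 4 each). Snrpb2 had thus gone from higher to lower than standard between 48 h and 55 h. Higher were Lsm10, at 90.0 ± 12.7 against 30.1 ± 3.70 CPM (1.54, SE 0.15, adjusted p = 1.64e-10), Snrpc, at 281 ± 41.5 against 113 ± 24.2 CPM (1.32, SE 0.26, adjusted p = 5.1e-05), and Sf3a2, at 15.6 ± 5.71 against 5.24 ± 0.854 CPM (1.37, SE 0.26, adjusted p = 3.84e-05).

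Against standard very late 2-cell embryos of 52 h, which share the 2-cell stage, the 55 h embryos without pyruvate were lower in 11 of 46 genes (23.9%) and higher in 1 (2.17%), beside 16.1% and 18.4% of all genes, with medians of -0.27 and 0.0040. The lower ones include Snrpa1 (146 ± 63.9 against 312 ± 41.5 CPM, -1.20, SE 0.26, adjusted p = 0.000595) and Sf3b1 (-0.66, SE 0.13, adjusted p = 0.000132). Prpf38b was the 1 higher gene (38.6 ± 2.00 against 26.9 ± 2.87 CPM, 0.51, SE 0.19, adjusted p = 0.0353), and this call was lost without very late library 2 or 3, without library 2 or 3 of the 55 h group (adjusted p of 0.0567 to 0.142) and under median-ratio scaling (0.0672). The count of lower genes was 6 without very late library 1, 5 without very late library 2 and 5 without library 3 of the 55 h group. These 4 comparisons at equal age and the 2 at similar stage share libraries, so they are not independent of each other.

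In morulae at 78 h the genes split evenly without pyruvate. Of 45 tested, 8 (17.8%) were higher and 9 (20%) lower, with a median of -0.02, beside 32.8% and 6.62% of all genes and a median of 0.28. The splits under the other scalings were 4 and 16, 4 and 12, and 1 and 19, as the all-gene median moved to 0.03, -0.07 and -0.07. Without standard libraries 1 and 2, which stood apart, the counts were 12 and 8. Under all 4 scalings 1 gene was higher (Lsm10) and 9 lower (Lsm12, Prpf6, Sf3a1, Sf3b1, Sf3b2, Sf3b3, Snrpa1, Snrpb2 and Snrpn), and among the SF3 genes 1 rose and 4 of 9 fell in the main comparison.

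Lsm10 was at 22.4, 20.5, 20.4, 15.5 and 10.9 CPM without pyruvate, and its 6 standard libraries ran from 3.93 to 6.93 CPM, a difference of 1.48 (SE 0.22, adjusted p = 2.03e-05). Snrpa was at 272, 409.6, 429, 224 and 248 CPM against 69.8, 185, 208, 190.7, 167 and 213 CPM (0.91, SE 0.23, adjusted p = 0.00322), where standard library 1 was the lowest by far, and the difference was 0.65 without libraries 1 and 2. Lsm1 rose by 0.76 (SE 0.15, adjusted p = 0.000467). Prpf6 was at 22.1 ± 5.06 against 39.8 ± 11.3 CPM (-0.80, SE 0.19, adjusted p = 0.00203; n = 5 and 6), and Sf3b3, which lies at the heart of the SF3b complex, at 75.3 ± 10.1 against 122 ± 17.5 CPM (-0.69, SE 0.13, adjusted p = 0.000292). Lsm12 was lower by 0.60 (-0.60, SE 0.20, adjusted p = 0.0226), but its groups overlapped, and its adjusted p was 0.0551 without standard libraries 1 and 2, 0.0555 without standard library 2, and 0.087 and 0.0807 without library 4 or 5 of the morulae lacking pyruvate. Prpf6 also overlapped, through standard library 2, at 23.3 CPM. With the length trend removed the adjusted p was 0.0731 for Snrpa and 0.11 for Lsm1. The exons of Sf3b3 share bases with Cog4 on the other strand, at 1.23 times its level.

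Removing lactate changed 5 of 45 genes in morulae, 1 higher (2.22%) and 4 lower (8.89%), beside 8.37% and 3.42% of all genes, with medians of -0.17 and 0.10. Sf3a2 was at 25.9, 25.7, 25.9, 18.7 and 37.9 CPM against 1.32 to 6.80 CPM in the 6 standard libraries (2.71, SE 0.28, adjusted p = 4.55e-06), with the overlap with Plekhj1 given above. Lsm7 was at 79.7, 89.7, 82.2, 72.6 and 69.6 CPM against 142 to 224 CPM (-1.08, SE 0.14, adjusted p = 4.14e-05). Snrpb2 was at 80.2 ± 5.56 against 126 ± 11.8 CPM (-0.64, SE 0.11, adjusted p = 0.000932) and Prpf38a at 108 ± 6.18 against 151 ± 12.6 CPM (-0.48, SE 0.11, adjusted p = 0.00624; SD, n = 5 and 6). Snrpn was the other lower gene, and all 5 calls held under the 4 scalings. Both comparisons share the standard morulae.

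KY-PYR-9 was compared with no inhibitor in morulae without pyruvate. With it 26 of 45 genes (57.8%) were lower and 7 (15.6%) higher, with a median of -0.52, beside 67.1% and 8.61% of all genes and a median of -0.90. Whether the genes differ from the transcriptome in this was not tested. The 100 most abundant genes took 34.6% to 37.5% of the libraries with the inhibitor and 21.1% to 23.8% of those without, and the splits were 22 and 5, 11 and 11, and 17 and 7 under the other scalings, which moved the all-gene median to -0.13, -0.10 and -0.06. Under all 4, Lsm5, Sf3b1, Snrpc, Snrpe, Snrpf, Snrpg and Snrpert were higher and Lsm6, Lsm10, Prpf19, Sf3a2 and Sf3b4 lower. Of the tri-snRNP genes 7 of 8 fell, and of the Sm ring 3 of 8 rose and 2 fell. The 9 genome activation genes summed to 1892 to 2121 CPM with the inhibitor and 525 to 1447 CPM without, the inner cell mass markers to 127.5 to 187.8 and 228.6 to 341.6 CPM, and the trophectoderm markers to 176.6 to 236.9 and 442.7 to 1289 CPM. Their part in the differences was not tested.

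Sf3b4 was at 20.4, 33.0, 37.1 and 31.4 CPM with the inhibitor and at 108, 157, 172, 132 and 157.5 CPM without (-2.23, SE 0.25, adjusted p = 8.57e-08). Lsm6, of both LSm rings, was at 34.0, 34.7, 26.2 and 36.3 CPM against 129, 150.0, 164, 102 and 95 CPM (-1.91, SE 0.17, adjusted p = 5.79e-09), and Lsm10 at 4.27 ± 0.593 against 17.9 ± 4.70 CPM (-1.81, SE 0.24, adjusted p = 1.35e-06). Each of the 3 was lower in every library with the inhibitor. Snrpg went the other way, at 278, 274.9, 245 and 307 CPM against 102, 146, 161, 117 and 129 CPM (1.08, SE 0.18, adjusted p = 2.11e-05), as did Lsm5 (79.7 ± 11.8 against 40.8 ± 9.16 CPM, 0.97, SE 0.22, adjusted p = 0.000557), Snrpc (261 ± 30.2 against 135 ± 26.6 CPM, 0.96, SE 0.21, adjusted p = 0.00038) and Sf3b1 (524 ± 35.9 against 310.3 ± 63.3 CPM, 0.77, SE 0.16, adjusted p = 0.000213). Snrpb fell by 0.33 (adjusted p = 0.0264) but was higher by 0.80 under median-ratio scaling and by 0.46 with the length trend removed. Its call was lost without library 2 or 3 of the morulae lacking pyruvate or library 1 or 3 of those with the inhibitor (adjusted p of 0.0584 to 0.106). Among related lists 10 of 10 minor spliceosome genes, 33 of 42 further core genes and 8 of 8 decapping partners fell, beside 67.1% of all genes, and these counts depend on the scaling. Under median-ratio scaling, quantile scaling and with the length trend removed, 3, 3 and 4 of the 10 minor spliceosome genes and 3, 2 and 2 of the 8 decapping partners fell. The further core genes split into 15 higher and 5 lower, 7 and 6, and 9 and 8, with medians of 0.18, -0.09 and 0.08 in place of -0.84.

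MYC and MAX bind the palindrome CACGTG, so these letters were searched in the promoters. They stood in 4 of the 36 genes (11.1%), namely Snrpa, Prpf3, Prpf39 and Prpf40b, near the 10.8% of genes above 1 CPM and the 8.09% of all genes in the table. Snrpa (chr7:27196222-27196521, minus strand) and Prpf3 (chr3:95855704-95856003, minus strand) are printed because they carry the letters and were measured with the inhibitor, with CACGTG and the 2 other motifs given above in capitals.
Snrpa: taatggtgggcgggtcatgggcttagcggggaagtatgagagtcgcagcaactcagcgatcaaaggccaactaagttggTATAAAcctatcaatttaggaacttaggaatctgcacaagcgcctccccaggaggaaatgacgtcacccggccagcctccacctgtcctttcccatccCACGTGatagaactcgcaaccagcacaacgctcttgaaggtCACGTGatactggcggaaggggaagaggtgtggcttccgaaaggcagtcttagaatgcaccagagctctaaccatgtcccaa
Prpf3: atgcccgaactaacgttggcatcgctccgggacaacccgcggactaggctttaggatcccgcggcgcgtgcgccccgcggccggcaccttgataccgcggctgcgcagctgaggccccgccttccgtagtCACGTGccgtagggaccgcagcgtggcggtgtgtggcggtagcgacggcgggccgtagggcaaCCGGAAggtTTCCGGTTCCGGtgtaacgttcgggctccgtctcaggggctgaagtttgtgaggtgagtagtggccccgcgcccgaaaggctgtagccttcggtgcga
The Snrpa window holds CACGTG 2 times, and the Prpf3 window 1 time beside 3 matches of CCGGAA. With the inhibitor Snrpa was at 129.8, 128, 119.6 and 125 CPM and without it at 224 to 429 CPM (-1.27), and Prpf3 at 9.95, 7.97, 11.1 and 8.69 CPM against 15.5 to 48.2 CPM (-1.48). Prpf39 changed by -1.03, and Prpf40b was too low to be tested. All 3 tested genes were lower, in a comparison where 67.1% of all genes were. Under median-ratio scaling, quantile scaling and with the length trend removed, the change was -0.15, -0.94 and -0.43 for Snrpa (adjusted p = 0.642, 0.00231 and 0.129). It was -0.42, -0.38 and -0.52 for Prpf3 (adjusted p = 0.264, 0.326 and 0.13). For Prpf39 it was 0.07, -0.12 and -0.10 (adjusted p = 0.776, 0.651 and 0.665), so that only Snrpa kept its call, under quantile scaling. Whether the letters matter to this was not tested. The exons of Snrpa share bases with BC024978 on the other strand, at 0.129 times its level.

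Blastocysts without pyruvate were higher in 37 of the 46 genes (80.4%) and lower in 4 (8.7%), with a median of 1.10, near the transcriptome, where 80.8% were higher and 7.14% lower with a median of 1.15. The 100 most abundant genes took 23.2% to 25.2% of those libraries and 40.0% to 44.2% of standard ones. Under the other scalings the splits were 8 and 21, 17 and 12, and 9 and 12, with all-gene medians of 0.07, 0.14 and 0.10. Under all 4, Lsm1, Prpf3, Prpf6, Prpf19, Prpf38b and Sf3a2 were higher and Snrpe, Snrpf, Snrpg and Snrpert lower. Trophectoderm markers summed to 8885 to 9981 CPM without pyruvate and 16870 to 20010 CPM in standard blastocysts, and inner cell mass markers to 364 to 567 and 233 to 372 CPM. Their part in the differences was not tested.

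In CPM all 8 tri-snRNP genes, all 5 other PRPF genes, 8 of 9 SF3 genes and the 4 U1 and U2 genes rose. Only 4 of 8 Sm genes did, and 3 fell. Of all genes 80.8% were higher and 7.14% lower. Under all 4 scalings the higher genes of these roles were Prpf3, Prpf6 and Prpf38b of the tri-snRNP group, Prpf19 and Sf3a2. No U1, U2 or Sm gene was higher under all 4. Prpf6 was at 36.2, 36.9, 52.2, 44.7 and 44.1 CPM without pyruvate and at 6.06, 9.54, 8.77 and 9.98 CPM with it (2.20, SE 0.16, adjusted p = 3.32e-09). Prpf38b, a relative of Prpf38a, was at 12.8, 14.8, 15.3, 19.5 and 16.9 CPM against 3.20, 3.47, 3.03 and 3.80 CPM (1.94, SE 0.16, adjusted p = 7.13e-09). Sf3a2 was at 46.3, 9.10, 22.8, 59.6 and 32.0 CPM against 0.292, 3.65, 0.611 and 0.300 CPM (3.98, SE 0.43, adjusted p = 9.85e-08). All 3 were higher in every library without pyruvate than in any standard one. Prpf38a (1.51, SE 0.13, adjusted p = 1.23e-08), Sf3b1 (1.07, SE 0.15, adjusted p = 2.66e-06), Lsm12 (1.05, SE 0.21, adjusted p = 0.000118) and Snrpa1 (0.80, SE 0.18, adjusted p = 0.000376) rose too, and of these Sf3b1, Lsm12 and Snrpa1 were lower under median-ratio scaling. Snrpb (0.29, adjusted p = 0.0379) and Lsm2 (0.35, adjusted p = 0.0404) rose least and were also lower under that scaling. Both calls were lost when 1 library was left out, for Snrpb standard library 3 or 4 or library 1, 2, 3 or 5 lacking pyruvate (adjusted p of 0.0546 to 0.0868), and for Lsm2 standard library 1, 2 or 4 or library 1, 2 or 5 lacking pyruvate (0.0556 to 0.106).

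Snrpe, Snrpf and Snrpg, whose proteins form a subassembly of the Sm ring, all fell. Snrpe was at 256, 181, 171.5, 173 and 206 CPM without pyruvate and at 393, 313, 396 and 478 CPM with it (-1.0, SE 0.18, adjusted p = 3.36e-05). Snrpg was at 165, 128, 108, 109 and 170.5 CPM against 264.5, 158, 272 and 271 CPM (-0.82, SE 0.19, adjusted p = 0.000701), and Snrpf at 40.0, 30.4, 29.8, 34.2 and 38.8 CPM against 59.4, 42.6, 64.7 and 71.7 CPM (-0.75, SE 0.21, adjusted p = 0.00225). Snrpe and Snrpf did not overlap, while for Snrpg standard library 2 lay within the range without pyruvate. The 3 had risen from the 8-cell stage to the standard blastocyst, a comparison that shares the standard blastocysts.

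**Figure D4:**
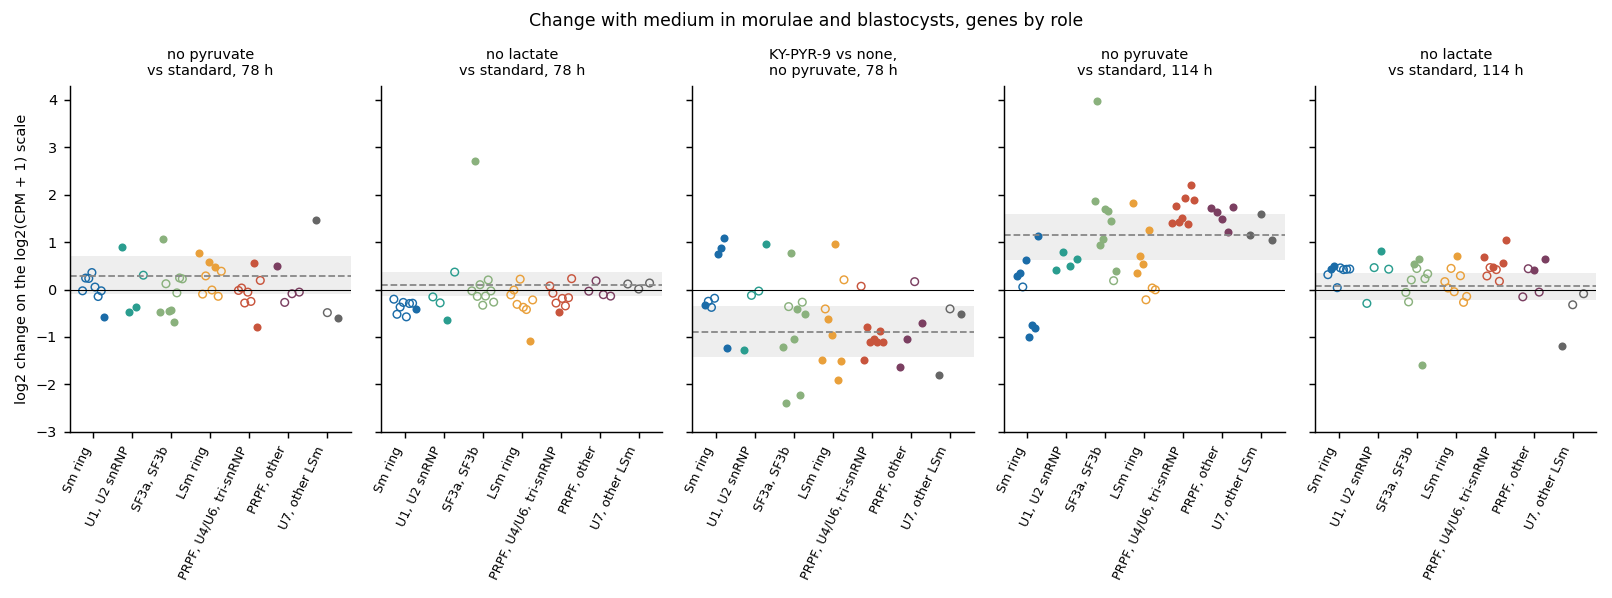
Change of each gene with the medium on the log2(CPM + 1) scale in morulae at 78 h (3 panels) and blastocysts at 114 h (2 panels), by role; filled points passed an adjusted p of 0.05, and the grey band and dashed line give the central 50% and the median of all genes tested. Without pyruvate at 114 h the tri-snRNP genes lie above the median of 1.15, while Snrpe, Snrpf and Snrpg of the Sm ring lie below 0.

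In this comparison the change went with transcript length. Over the 45 genes Pearson's r between the log2 change and log2 length was 0.65 and Spearman's rho 0.72, a description over genes that share their libraries. The median change was 0.35 in the 11 genes of up to 1000 bases, 0.94 in the 15 of middle length and 1.64 in the 19 over 2500 bases. Over all genes the same classes had medians of 0.41, 1.04 and 1.43, so the gradient was present in the whole transcriptome. Without lactate at 114 h the r was 0.16.

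**Figure D5:**
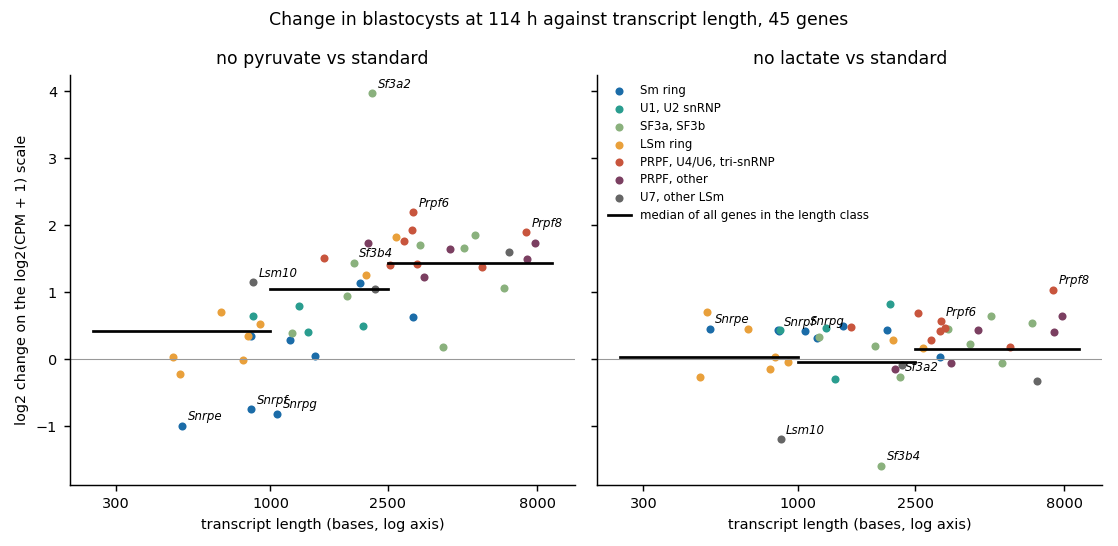
Change in blastocysts at 114 h without pyruvate (left) and without lactate (right) on the log2(CPM + 1) scale against transcript length in bases (log axis), 1 point per gene, coloured by role. Black lines are the medians of all genes in 3 length classes, which rise from 0.41 to 1.43 on the left, and Snrpe, Snrpf and Snrpg lie well below them.

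Without lactate, 13 of 46 genes (28.3%) were higher in blastocysts and 2 (4.35%) lower, with a median of 0.42, beside 14% and 9.29% of all genes and a median of 0.07. The splits under the other scalings were 8 and 2, 9 and 2, and 13 and 2, and 7 genes were higher when only the 2 groups compared were fitted. Under all 4 scalings 7 genes were higher, namely Lsm5, Prpf6, Prpf8, Prpf18, Prpf38a, Sf3b3 and Snrpb2, and Lsm10 and Sf3b4 were lower. Prpf8, the protein at the catalytic centre, was at 45.6, 63.5, 70.6 and 37.3 CPM without lactate and at 30.8, 21.5, 16.2 and 36.8 CPM with it (1.03, SE 0.24, adjusted p = 0.00475). Snrpb2 was at 145, 169, 173 and 147 CPM against 76.5, 82.4, 86.3 and 117 CPM (0.82, SE 0.15, adjusted p = 0.000993), and Lsm5 at 65.2, 73.9, 70.5 and 58.6 CPM against 36.7, 32.4, 44.4 and 51.9 CPM (0.70, SE 0.16, adjusted p = 0.00486). The groups were apart in each, for Prpf8 by less than 1 CPM. Lsm10 was lower, at 14.2, 9.34, 11.2 and 9.71 CPM against 32.2, 29.0, 26.0 and 20.3 CPM (-1.20, SE 0.17, adjusted p = 9.81e-05). Sf3b4 was lower on average, at 20.3, 24.4, 15.2 and 7.10 CPM against 55.1, 121, 65.1 and 12.1 CPM (-1.60, SE 0.46, adjusted p = 0.0185), but standard library 4 lay among the libraries without lactate. Its adjusted p was 0.0685 without standard library 2, 0.0612 without standard library 3 and 0.0611 without library 4 lacking lactate. The count of higher genes was 8 without standard library 3 and 8 without library 2 of the group lacking lactate, and the count of lower genes was 1 without standard library 2 or 3 or without library 4 of the group lacking lactate. Trophectoderm markers summed to 9895 to 12180 CPM without lactate. Standard blastocysts serve both media comparisons.

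The effect of the medium was then compared between blastocysts and morulae. The log2 change without pyruvate was higher in blastocysts than in morulae in 27 of 46 genes (58.7%) and lower in 2 (4.35%), with a median difference of 0.85, beside 44.1% and 11.3% of all genes and a median of 0.63. The splits under the other scalings were 14 and 15, 14 and 10, and 16 and 5, with all-gene medians of -0.05, 0.08 and 0.07. The difference was 3.00 for Prpf6 (SE 0.30, adjusted p = 1.78e-07), which fell in morulae and rose in blastocysts, 2.35 for Sf3b3 (SE 0.21, adjusted p = 6.09e-08) and 2.91 for Sf3a2 (SE 0.62, adjusted p = 0.000492). It was -1.05 for Snrpe (SE 0.34, adjusted p = 0.0133) and -0.79 for Snrpg (SE 0.29, adjusted p = 0.0269), the 2 lower ones. Without standard morula library 1 the lower ones were 4, as they were without blastocyst library 2, and they were 1 without standard blastocyst library 1, 3 or 4, without library 3 or 4 of the blastocysts lacking pyruvate, or without library 3 of the morulae lacking pyruvate. In these 6 cases the lost gene was Snrpg (adjusted p of 0.0506 to 0.0597).

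For lactate the difference passed in 11 of 45 genes (24.4%) in the higher direction and in 2 (4.44%) in the lower, with a median of 0.60, beside 4.07% and 6.1% of all genes and a median of -0.05. The other scalings gave 6 and 3, 6 and 2, and 19 and 2. Snrpb2 was lower without lactate in morulae and higher in blastocysts, with a difference of 1.46 (SE 0.20, adjusted p = 7.74e-05), and the difference was 1.08 for Lsm5 (SE 0.30, adjusted p = 0.0235) and 0.97 for Prpf38a (SE 0.19, adjusted p = 0.00295). The call of Lsm5 was lost without standard blastocyst library 1 or 2 or library 2 of the blastocysts lacking lactate (adjusted p of 0.0532 to 0.0587). Sf3a2, higher without lactate in morulae, had a difference of -2.97 (SE 0.49, adjusted p = 0.000605) and Lsm10 one of -1.32 (SE 0.32, adjusted p = 0.0116). The count of 11 was 21 without standard morula libraries 1 and 2. It fell to 3 to 6 when 1 library was left out, namely standard blastocyst library 1 or 3, library 1, 2 or 3 of the blastocysts lacking lactate, or library 1, 3, 4 or 5 of the morulae lacking lactate.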

How the data were processed

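Libraries were made with Smart-seq2 from mouse embryos, aligned with STAR 2.6.1d to mm10 per the submitters' processing notes, and the authors deposited 1 table of CPM (read counts scaled to a common library total) with 0.0001 added to each value; the counting step and its use of strand are not given in the sources used here. The offset was taken off, 26 rows named by numbers (0.0458% to 0.194% of a library) were left out, and 1 row lacked a value. The table's 6 columns that matched no sample were not used. Low values were whole multiples of 1 read in 70.5% to 78.7% of cases (tolerance 0.1), which gave the depth but not the reads, so no count test was run.

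Groups were compared with limma 3.58.1 (R 4.3.3) on log2(CPM + 1), over genes above 1 CPM in at least 3 libraries, in 1 fit per set of groups, with Benjamini-Hochberg adjustment over all genes and a threshold of 0.05. Alternatives were median-ratio scaling, quantile scaling, removal of the trend over transcript length, a pseudocount of 0.1, no filter, the compared groups alone, a replicate block and each library left out.

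The genes and lists were chosen with earlier results of these data known, and the choice to count without Snrpert and the motifs were set after seeing the data. Full statistics go to genes past the threshold whose higher group reached 10 CPM, up to 3 with the largest rise and 3 with the largest fall per comparison, and to the gene with the highest mean of each role; genes of other lists are named up to 2 per list by size of change. One gene is counted but not reported by name here. Snrpe, Snrpf and Snrpg, the start-level classes and some genes beside these were named after their values were seen. Symbols were matched to the mm10 annotation for 36809 rows.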

Additional observations from a re-analysis of the deposited data

Results flagged for a closer look

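In 7 of 128 groups of 4 to 10 libraries that were looked at for summed levels of a role, 1 library stood far from the others. Chance alone marks about 1 in 20 such groups. In late 4-cell embryos library 1 was the highest for the tri-snRNP PRPF genes, at 632.5 CPM summed, and library 4 the lowest for the other PRPF genes, at 479.8 CPM. In standard morulae library 2 was the lowest for the tri-snRNP genes, at 380.3 CPM, and the highest for Lsm10, Lsm11 and Lsm12, at 342.2 CPM. In mid 2-cell embryos library 4 was the highest for the other PRPF genes, at 167.8 CPM. In blastocysts library 1 was the lowest for the SF3 genes, at 624.3 CPM, and in 32-cell embryos library 4 was the highest for Lsm10, Lsm11 and Lsm12, at 95.2 CPM.

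The change without pyruvate differed between blastocysts and morulae by limma's test of the difference itself in 27 genes in the higher direction and 2 in the lower, and the change without lactate in 11 and 2.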

How the results depend on the processing

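A pseudocount of 0.1 and counting without Snrpert moved no count of genes by over 1.5 times. Higher and lower counts under median-ratio scaling were 11 and 18 from 34 h to 42 h, 16 and 18 from 34 h to 48 h, 17 and 15 from 8-cell embryo to blastocyst, 18 and 9 without pyruvate at 42 h, 9 and 8 for 42 h without pyruvate against 34 h, 4 and 16 without pyruvate in morulae, 22 and 5 with KY-PYR-9, 8 and 21 without pyruvate in blastocysts, and 14 and 15 for the difference between the stages; the higher count was 3 at 55 h, 0 for 55 h against 52 h, 8 without lactate in blastocysts and 6 for the lactate difference. Under that scaling the median change was -0.19 from 34 h to 42 h, -0.27 to 48 h, 0.31 at 42 h without pyruvate, 0.50 with KY-PYR-9, -0.31 without pyruvate in blastocysts and -0.026 for its difference from morulae. Genes that changed sign under it were, from 34 h to 42 h, Lsm2 (-0.014) and Prpf38a (-0.19), to the blastocyst Sf3b1 (0.51) and Snrpb (0.26), without pyruvate Lsm2 (0.14) at 42 h and Sf3b1 (0.12) at 48 h, with KY-PYR-9 Lsm2 (0.72), Prpf38a (0.0064), Snrpb (0.80), Snrpa1 (1.00) and Lsm12 (0.61), without pyruvate in blastocysts Lsm2 (-1.07), Sf3b1 (-0.36), Snrpb (-1.14), Snrpa1 (-0.63) and Lsm12 (-0.34), and Snrpb (-0.70) for the difference between stages.

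Under quantile scaling the counts were 15 and 18 to 42 h, 18 and 19 to 48 h, 14 and 9 at 42 h without pyruvate, 11 and 11 with KY-PYR-9, 17 and 12 without pyruvate in blastocysts and 14 and 10 for its difference from morulae; the lower count to the blastocyst was 20, and higher counts were 8 for 42 h against 34 h, 2 for 55 h against 52 h, 4 without pyruvate in morulae and 6 for the lactate difference. Medians were -0.14 to 42 h, -0.0012 to 48 h, 0.17 at 42 h without pyruvate and 0.033 with KY-PYR-9, and Lsm2 (0.017, without pyruvate at 42 h; -0.47, in blastocysts) and Lsm12 (-0.22, in blastocysts) changed sign. With the length trend removed the counts were 15 and 18 to 42 h, 19 and 15 to 48 h, 15 and 13 without pyruvate at 42 h, 8 and 8 for 42 h against 34 h, 1 and 19 without pyruvate in morulae, 17 and 7 with KY-PYR-9, 9 and 12 without pyruvate in blastocysts and 16 and 5 for its difference from morulae; lower counts were 3 to the 8-cell stage and 9 without lactate in morulae, and higher counts 3 at 55 h and 19 for the lactate difference. Medians were -0.026 to 42 h, 0.18 at 42 h without pyruvate and 0.25 with KY-PYR-9. The genes with another sign were Sf3b1 (0.20 to the blastocyst), with KY-PYR-9 Snrpb (0.46), Snrpa1 (0.70) and Lsm12 (0.44), and without pyruvate in blastocysts Lsm2 (-0.13), Sf3b1 (-0.41), Snrpb (-0.37) and Lsm12 (-0.063). The cause was not tested for any of these.

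With the compared groups alone the lower count was 11 to 42 h, the higher count 3 at 55 h and 7 without lactate in blastocysts, and the counts 0 and 5 for 55 h against 52 h and 5 and 4 without pyruvate in morulae. With no filter 1 gene was lower without lactate in blastocysts and 5 were higher for the lactate difference. Without morula libraries 1 and 2 the pyruvate difference had 4 lower and the lactate difference 21 higher genes. Leaving out 1 library gave 5 to 8 lower genes at the 8-cell stage, 6 to 11 higher at 48 h, 7 to 14 higher and 2 to 7 lower for 42 h against 34 h, 0 to 2 higher and 5 to 13 lower for 55 h against 52 h, 8 to 17 higher and 1 to 3 lower without lactate in blastocysts, 1 to 4 lower for the pyruvate difference and 3 to 15 higher for the lactate difference. Of 316 such counts 281 stayed within 1.5 times.

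The replicate numbers were not found to pair the libraries, since in no comparison did every same-numbered pair correlate above 0.1 in its deviations. With the replicate number as a block, 0 genes were higher for 55 h against 52 h and 6 for the lactate difference, no other count moved by over 1.5 times, and 6 of 183 single-gene calls were lost. Depth limits genes near 1 CPM, such as Prpf40b (at most 0.927 CPM in a standard group) and Sf3a2 (0.0383 CPM at 42 h).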
